A study of Mus musculus with 16 samples.

Results

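Immediate early genes are transcribed within minutes of a growth signal, without new protein synthesis, and many encode transcription factors that switch on a later set of genes. Lysophosphatidic acid (LPA), a serum lipid, acts through G protein-coupled receptors on the Ras-ERK pathway, which phosphorylates ternary complex factors at serum response factor (SRF), and on actin, whose assembly frees the SRF coactivators of the MRTF family. Actin also acts on YAP, and both arms induce their own brakes, such as the DUSP phosphatases, the Sprouty proteins and RNA-binding proteins that destroy short-lived mRNAs. The genes described here are 43 mouse genes of this kind, chosen by name as immediate early genes, SRF and YAP targets and their feedback, of which 41 were among the 13015 listed genes. Areg and Spry4 were not analysed here.

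The RNA came from NIH/3T3 cells, an immortalized mouse fibroblast line, that had received either siRNA against Apc (siAPC) or a non-targeting siRNA (siControl). Apc encodes a microtubule-binding tumour suppressor of the Wnt pathway. After serum starvation the cells sat for 2 h on a filter whose pores measure 3.0 µm, LPA was added below the filter for 1 h, and after 10 min in 0.3% paraformaldehyde the protrusions that had grown through the pores (Ps) were collected apart from the cell bodies above (CB). Each siRNA thus has a CB and a Ps group, which makes 4 groups with 4 libraries in each, 16 in all. Every group had LPA for 1 h and there was no group without it, so the values below are levels after LPA and not responses to it. All cells are of 1 line, CB came from 1 filter and Ps from 3 other filters, and fewer cells or less RNA per cell cannot be told apart in any of these values.

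Values are log2 CPM (read counts scaled to library size), so a difference of 1 is a 2-fold difference. Listed reads numbered 13466225 to 20296087 per library, and 3 reads correspond to a log2 value between -2.73 and -1.8. Apc itself lay between 0.54 and 1.42 in siAPC CB against 2.13 to 3.54 in siControl CB, and between 1.33 and 1.90 in siAPC Ps against 3.29 to 3.73 in siControl Ps. It was 31.3% of the siControl level in CB and 27.9% in Ps (adjusted p = 0.000142 and 3.11e-05, limma; p = 0.0286 in each fraction by an exact two-sided permutation test, the smallest that 4 against 4 libraries allow). All 9 fibroblast markers were listed, although Thy1 was near the 3-read level, and of 10 markers of other cells 5 were listed. The 5 RNAs checked as known protrusion RNAs (Rab13, Pkp4, Ddr2, Kank2 and Cyb5r3) were all higher in Ps with both siRNAs. So were both RNAs checked as diffuse, Arpc3 (0.65 with siControl and 0.55 with siAPC) and Rhoa (0.46 and 0.42). In 1 library of each group (number 3 of siControl CB and number 2 of the other groups) the values fell with the GC content of the genes, with a Spearman correlation across 10235 genes between -0.524 and -0.645 against the other libraries of the group. In the other 12 libraries this correlation ran from -0.04 to 0.536, so trends with GC content were not confined to those 4.

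SRF binds a short DNA element called the CArG box. Promoter windows of 300 bases (250 before and 50 after a RefSeq start, GRCm38.p6) were at hand for 33 of the 41 listed members, all but Fosl1, Egr1, Egr3, Ier2, Dusp4, Klf10, Hbegf and Phlda1. A perfect CArG box on either strand stood in the windows of 4 of the 33 members (12.1%), against 1.81% of all 27025 genes with a window. These 4 were Srf, Egr2, Dusp5 and Zfp36, and their boxes are shown because SRF targets are among the genes described here. The box is in capitals, and each stretch runs 5′ to 3′ on the strand of the gene.
Srf (chr17:46556225-46556254, minus strand): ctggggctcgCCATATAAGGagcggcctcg
Srf (chr17:46556205-46556234, minus strand): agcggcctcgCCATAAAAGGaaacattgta
Egr2 (chr10:67537787-67537816, plus strand): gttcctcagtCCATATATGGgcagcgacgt
Egr2 (chr10:67537484-67537513, plus strand): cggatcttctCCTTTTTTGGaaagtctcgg
Dusp5 (chr19:53529063-53529092, plus strand): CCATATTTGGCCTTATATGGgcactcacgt
Zfp36 (chr7:28379267-28379296, minus strand): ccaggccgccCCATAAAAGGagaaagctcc
In Srf the boxes began 82 and 62 bases before the start, and in Dusp5 the boxes at 82 and 72 bases lay end to end.

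The cyclic AMP response element (CRE, TGACGTCA), bound by CREB and ATF proteins, stood in 3 of the 33 members (9.09%) against 2.03% of all genes. Those members were Dusp1, Btg2 and Maff, all of which appear in the results below.
Dusp1 (chr17:26508597-26508626, minus strand): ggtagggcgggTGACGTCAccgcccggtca
Btg2 (chr1:134079303-134079332, minus strand): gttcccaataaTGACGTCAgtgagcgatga
Maff (chr15:79347480-79347509, plus strand): ggctggggcggTGACGTCActgcatgactg
Of the other motifs searched on both strands, the AP-1 site (TGANTCA) stood in 4 members (12.1%, against 8.97% of all genes), the TEAD site (CATTCC) in 5 (15.2% against 16.6%) and the E-box (CACGTG) in 7 (21.2% against 8.09%). These are matches of letters, and neither a match nor its lack says whether a factor was bound.

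Levels were set per kilobase of the longest annotated transcript to compare members with each other. The highest was Jund (6.97 log2 CPM per kilobase over all 16 libraries), an AP-1 subunit known for steady expression, followed by Klf4 at 5.61, Btg1 at 5.30, Klf2 at 5.27 and Zfp36l1 at 5.23. The lowest were Egr3 (-2.30), Il6 (-1.56), Ankrd1 (-1.19), Fos (-0.92) and Tnfaip3 (-0.74). Fos, the prototype of the class (chr12:85473890-85477273), had between 4 and 65 reads in every library after 1 h of LPA. Its siControl CB values were -0.32, -0.44, 0.69 and 0.28 log2 CPM, close to the lowest members and far below those of Fosl2, its relative, at 7.70, 7.71, 7.43 and 7.56.

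Some members varied widely between libraries of the same group. Egr1, a zinc finger factor and a direct ERK and SRF target (chr18:34859823-34864984), was at 2.68, 2.67, 6.50 and 6.32 in siControl CB numbers 1 to 4 and at 2.73, 2.99, 6.76 and 6.27 in siControl Ps. It was at 3.57, 3.21, 4.99 and 4.25 in siAPC CB and at 3.79, 3.66, 5.32 and 4.85 in siAPC Ps. Numbers 3 and 4 were thus above numbers 1 and 2 in each of the 4 groups, with no overlap inside a group.

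**Figure D1:**
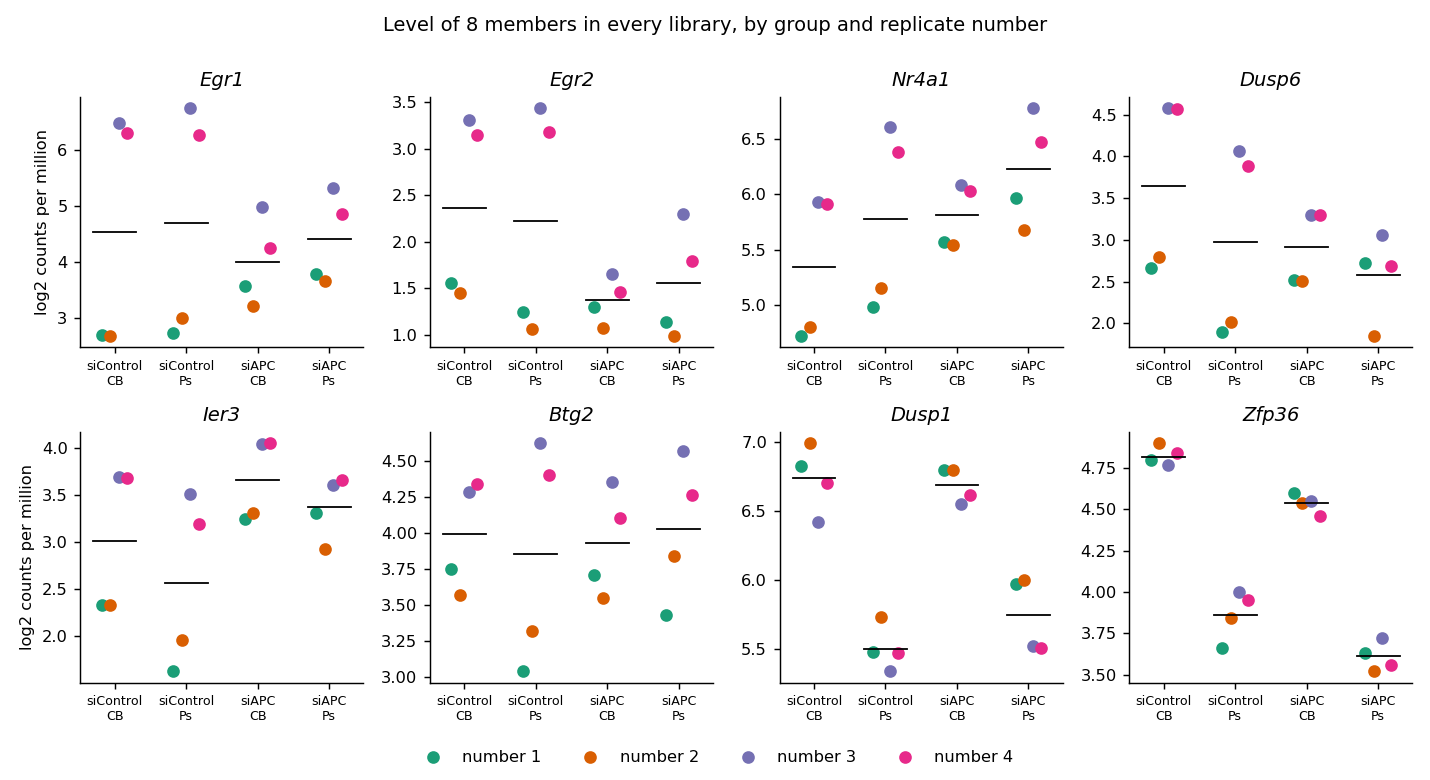
Level (log2 CPM, y axis) of 8 members in every library by group (x axis), with the replicate number as colour and the mean of the 4 libraries as a line. Egr1 spans 2.67 to 6.50 in siControl CB and 3.21 to 4.99 in siAPC CB, with numbers 3 and 4 on top in each group, while Dusp1 runs the other way and Zfp36 separates by fraction.

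The same order held for the relatives of Egr1. Egr2 (chr10:67535475-67542188) read 1.56, 1.45, 3.31 and 3.15 in siControl CB and 1.25, 1.06, 3.44 and 3.18 in siControl Ps. With siAPC it read 1.30, 1.08, 1.66 and 1.46 in CB and 1.14, 0.99, 2.30 and 1.8 in Ps. Numbers 3 and 4 were again the highest, but in siAPC CB the gap was narrower. Egr3 had only 1 to 65 reads, and its mean deviation from the group means was -1.04 and -1.18 for numbers 1 and 2 and 1.29 and 0.93 for numbers 3 and 4.

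Nr4a1, an orphan nuclear receptor (chr15:101254269-101274795), was at 4.72, 4.80, 5.93 and 5.91 in siControl CB and at 4.98, 5.15, 6.61 and 6.38 in siControl Ps. In siAPC it was at 5.57, 5.54, 6.08 and 6.03 in CB and at 5.97, 5.68, 6.78 and 6.47 in Ps. Numbers 3 and 4 exceeded numbers 1 and 2 in all 4 groups. Dusp6, the cytoplasmic phosphatase that inactivates ERK (chr10:99263231-99267489), was at 2.66, 2.80, 4.58 and 4.57 in siControl CB and at 1.90, 2.02, 4.07 and 3.88 in siControl Ps. Its siAPC values were 2.52, 2.51, 3.30 and 3.30 in CB and 2.72, 1.85, 3.06 and 2.69 in Ps. In siAPC Ps number 1 reached the level of number 4, so there the order no longer held in full.

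Dusp1, a nuclear phosphatase of p38 and JNK (chr17:26505590-26562128), ran the other way. It was at 6.83, 6.99, 6.42 and 6.70 in siControl CB, at 5.48, 5.73, 5.34 and 5.47 in siControl Ps, at 6.80, 6.80, 6.55 and 6.62 in siAPC CB and at 5.97, 6.0, 5.52 and 5.51 in siAPC Ps. Klf10, a TGF-beta inducible repressor (chr15:38291463-38300706), did so too, at 6.56, 6.44, 6.28 and 6.31 in siControl CB and 5.37, 5.59, 5.33 and 5.33 in siControl Ps. Its siAPC values were 5.96, 5.91, 5.67 and 5.60 in CB and 5.21, 5.14, 4.91 and 4.72 in Ps.

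Once these values had been seen, the replicate number in the labels was tested as a factor beside group (limma F test, adjusted over all genes). The number passed for 13 of the 41 members (31.7%) and for 267 of all 13015 genes (2.05%). Of those members 8 belong to the 11 zinc finger, nuclear receptor and early response genes, namely Egr1, Egr2, Egr3, Klf4, Klf10, Nr4a1, Ier2 and Ier3. The adjusted p was 0.000589 for Nr4a1, 0.00228 for Egr1 and 0.0443 for Klf10, whose call was lost in 13 of the 16 fits that leave out 1 library (adjusted p from 0.0685 to 0.111), with total-read scaling (0.178) and without the 4 libraries whose values fell with GC content (0.108). The others were Fosl1, an AP-1 subunit, the antiproliferative factor Btg2, the phosphatases Dusp1 and Dusp6, and Phlda1. Without those 4 libraries Dusp1 lost its call too (adjusted p = 0.0904, limma). No member of the SRF and YAP subgroup (5) and none of the secreted and NF-kB subgroup (4 listed) passed in this test.

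CB and Ps were taken from different filters. If the filters of a number were plated from the same culture, which the labels do not say, they are not independent, and the p-values of this test are too small. With CB and Ps averaged per siRNA and number, which leaves 8 values, 1 member passed the adjusted threshold (Btg2, adjusted p = 0.0248) and 32 of all genes did. There Mkl1 of the SRF subgroup (adjusted p = 0.0919) was close to Egr1 (adjusted p = 0.0976), and neither passed. At an unadjusted p under 0.05 the averaged values gave 21 of the 41 members (51.2%) against 12.0% of all genes. After removal of GC and length trends the number passed for 16 members and 486 of all genes, after scaling to total reads for 12 and 380, and without the 4 libraries whose values fell with GC content for 12 and 215. Leaving out 1 library moved the count over all genes from 128 (without siControl Ps 2) to 1496 (without siControl CB 3), so the background share is itself uncertain. Listed reads ran from 15536339 to 20296087 for number 1, from 13466225 to 17695079 for number 2, from 17144497 to 20129502 for number 3 and from 15698955 to 17285569 for number 4. Whether a number stands for a day, a passage or a batch is not given in the sources used here, and its part in the result was not tested.

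**Figure D2:**
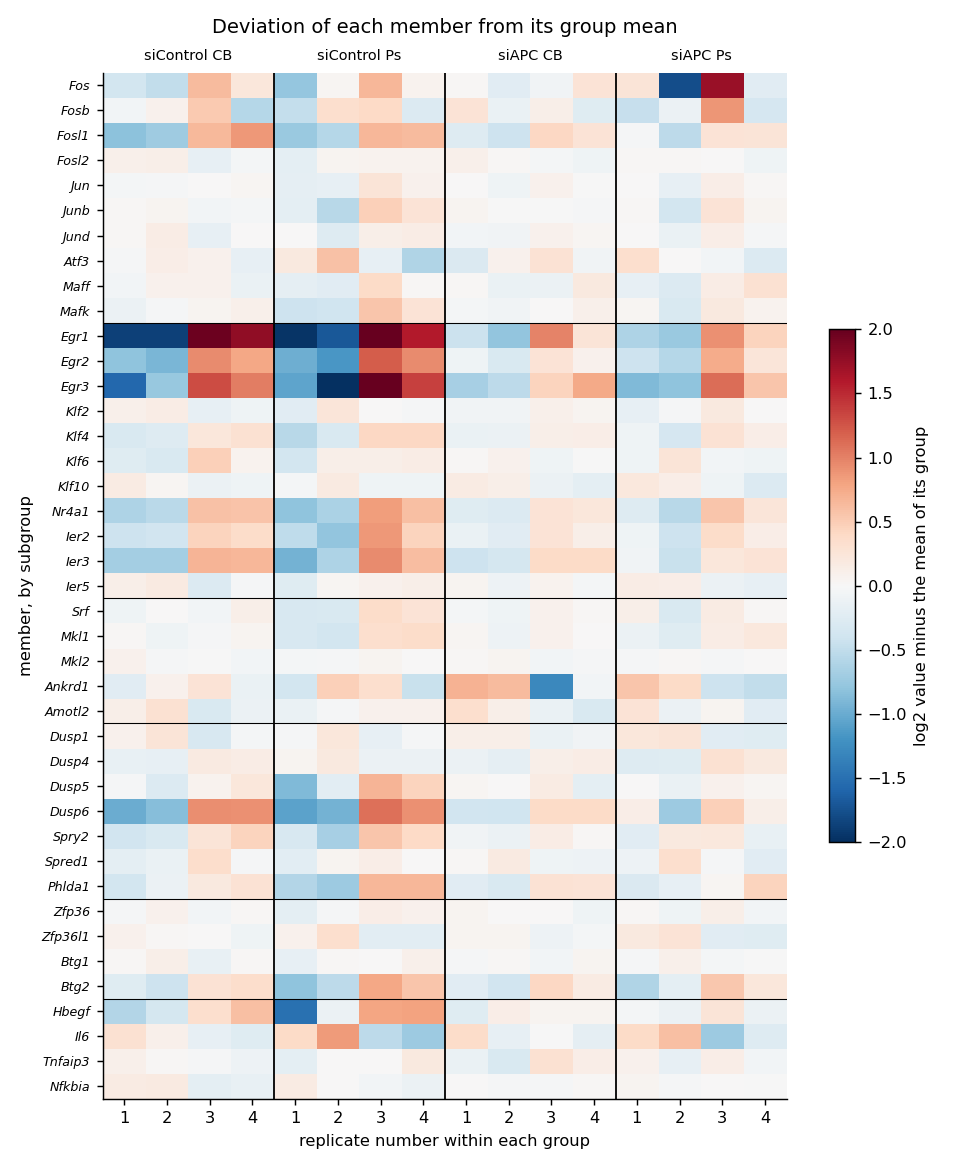
Deviation of each of the 41 members (y axis, by subgroup) from the mean of its group, in log2 units as colour that saturates at 2 on either side, for the 4 replicate numbers of each group (x axis). Egr1, Egr2, Egr3, Nr4a1, Ier2, Ier3, Fosl1, Dusp6, Phlda1 and Btg2 are below the mean in numbers 1 and 2 and above it in numbers 3 and 4 of siControl.

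The spread over the numbers was narrower in siAPC than in siControl for 11 of the 13 members in CB, for 11 in Ps and for 10 in both. It was also narrower for 20 of the other 28 members in CB and for 22 in Ps. Of all genes it was narrower for 70.9% in CB and 57.3% in Ps, so narrowing was not confined to the 13. In both fractions at once it was narrower for 76.9% of the 13, 57.1% of the other members and 41.3% of all genes. Whether these shares differ was not tested. The difference between same-numbered siAPC and siControl libraries is given by number. In CB the numbers were not taken to pair the siRNAs, so there it rests on the shared number only. For Egr1 it was 0.89, 0.53, -1.5 and -2.07 in CB and 1.06, 0.67, -1.44 and -1.41 in Ps. For Egr2 it was -0.25, -0.37, -1.65 and -1.69 in CB, and -0.11, -0.07, -1.14 and -1.37 in Ps. Dusp6 read -0.14, -0.29, -1.27 and -1.27 in CB, and Fosl1 read 0.30, 0.02, -0.50 and -0.88. Egr1 thus stood higher with siAPC in numbers 1 and 2 and lower in numbers 3 and 4, in both fractions. Ier3 and Nr4a1 differed in size but not in sign, at 0.92, 0.98, 0.35 and 0.37 for Ier3 and 0.85, 0.74, 0.15 and 0.12 for Nr4a1 in CB. A dependence of the difference on the number was not tested.

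**Figure D3:**
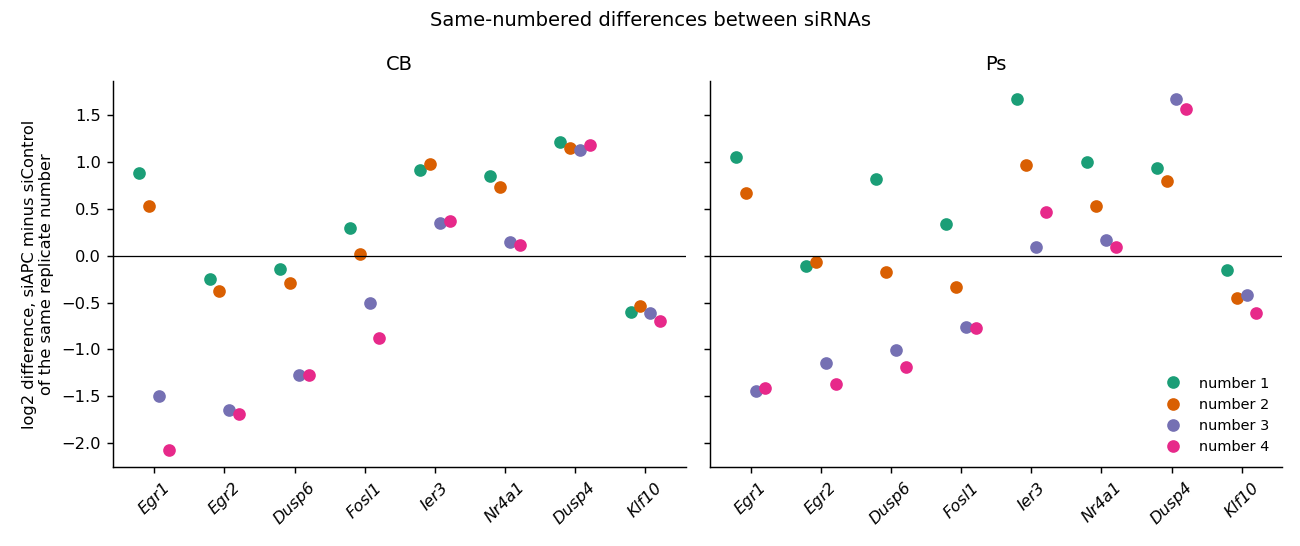
Log2 difference between the siAPC and siControl libraries of the same replicate number (y axis) for 8 members (x axis) in CB and in Ps, with the number as colour. The numbers were not taken to pair the CB libraries. Egr1 lies at 0.89 and 0.53 for numbers 1 and 2 but at -1.5 and -2.07 for numbers 3 and 4 in CB, and Dusp4 reads between 1.13 and 1.22 in CB but 0.94, 0.80, 1.68 and 1.57 in Ps.

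In siControl cells 19 of the 41 members were lower in protrusions than in cell bodies (46.3%, against 31.2% of all genes), 1 was higher (2.44%, against 29.1%) and 21 did not pass. The count of higher members was 6 after removal of GC and length trends, with 15 lower, 9 with array weights, and 4 without siControl Ps 1. The median log2 difference was -0.39 for the members and 0.00 for all genes. With scaling to total reads the split over all genes moved from 3792 higher and 4058 lower to 2005 and 6193, and over the members to 1 and 21. The nuclear RNAs moved with this comparison as well: all 4 listed of 5 were lower in Ps, with a summed level of 9.33 to 9.81 in siControl CB and 7.0 to 8.28 in siControl Ps. Their part in the members' result was not tested.

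By size, Dusp1 led, with the values given above and no overlap between the fractions. It fell by 1.23 on the log2 scale (SE 0.13, adjusted p = 9.85e-08, limma). Zfp36l1 and Zfp36, zinc finger proteins that bind AU-rich elements and speed the decay of early mRNAs, were also among the 5 largest. Zfp36l1 (chr12:80107754-80113013) read 7.38, 7.33, 7.31 and 7.21 in CB and 6.39, 6.63, 6.09 and 6.09 in Ps, and Zfp36 (chr7:28376784-28380253) read 4.80, 4.90, 4.77 and 4.84 in CB and 3.66, 3.84, 4.0 and 3.95 in Ps. The groups did not overlap for either. Zfp36l1 fell by 1.00 (SE 0.12, adjusted p = 7.64e-07) and Zfp36 by 0.96 (SE 0.08, adjusted p = 8.48e-09). Klf10 fell by 0.99 (SE 0.11, adjusted p = 1.77e-07), again without overlap.

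Jun, the AP-1 subunit that JNK phosphorylates (chr4:95049034-95052222), read 6.21, 6.22, 6.26 and 6.29 in siControl CB and 5.21, 5.22, 5.65 and 5.47 in siControl Ps. It fell by 0.86 (SE 0.09, adjusted p = 1.10e-07) and its groups did not overlap. The single member that rose was Maff, a small MAF protein that lacks a transactivation domain (chr15:79346621-79359076). Maff read 2.97, 3.11, 3.12 and 2.90 in CB and 3.61, 3.56, 4.18 and 3.81 in Ps, with every Ps library above every CB library. Its log2 difference was 0.77 (SE 0.14, adjusted p = 0.000117).

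By subgroup, set against the 31.2% of all genes that were lower, 4 of 10 AP-1 and bZIP members were lower (40%, near that share: Jun, Fosl2, Junb and Jund) and Maff was higher, while the other 5 lay between -0.06 and 0.52 and did not pass. Of the 11 zinc finger, nuclear receptor and early response members 4 were lower (36.4%, also near it), namely Klf10, Ier5, Klf4 and Klf2. Klf4 was not called with array weights (-0.23), without the 4 libraries whose values fell with GC content (-0.46) or after removal of GC and length trends (-0.29). Klf10 and Klf4 also varied with the number. Egr1 differed by 0.15 (SE 0.92), Nr4a1 by 0.44 (SE 0.35) and Ier3 by -0.44 (SE 0.38), and none of these passed. Between same-numbered libraries the difference had 1 sign for Nr4a1 (0.25, 0.35, 0.67 and 0.47) and for Ier3 (-0.70, -0.37, -0.18 and -0.49), but not for Egr1 (0.05, 0.32, 0.27 and -0.05). The numbers were not taken to pair the siControl libraries, so these differences rest on the shared number only. Of 7 listed ERK feedback members 4 were lower: Dusp1, the receptor signalling inhibitor Spry2, Phlda1 and Dusp4. Phlda1 was not called in 4 of the fits that leave out 1 library, with array weights (-0.16) or after removal of GC and length trends (-0.46), Dusp4 was not called after that removal (-0.17), and Spry2 was not called with array weights (-0.31). Without the 4 libraries whose values fell with GC content, neither Phlda1 (-0.39) nor Spry2 (-0.47) was called. With no intensity trend Phlda1 lost its call at an unchanged difference (-0.70). Zfp36, Zfp36l1 and Btg1 made 3 of 4 in the RNA decay and antiproliferative subgroup. Tnfaip3, a ubiquitin-editing inhibitor of NF-kB, and Nfkbia, which holds NF-kB in the cytoplasm, were 2 of 4 listed in the secreted and NF-kB subgroup.

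In the SRF subgroup the coactivators Mkl1 and Mkl2 (the files' names for the genes annotated as Mrtfa and Mrtfb) were lower, at -0.61 and -0.37, and Srf itself differed by 0.13 (SE 0.13, adjusted p = 0.406). The direction of Mkl1 did not hold once GC and length trends were removed (0.03), nor did that of Jund (0.06 in place of -0.29), and the difference of Mkl2 was then 0.00 (adjusted p = 0.983, limma).

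**Figure D4:**
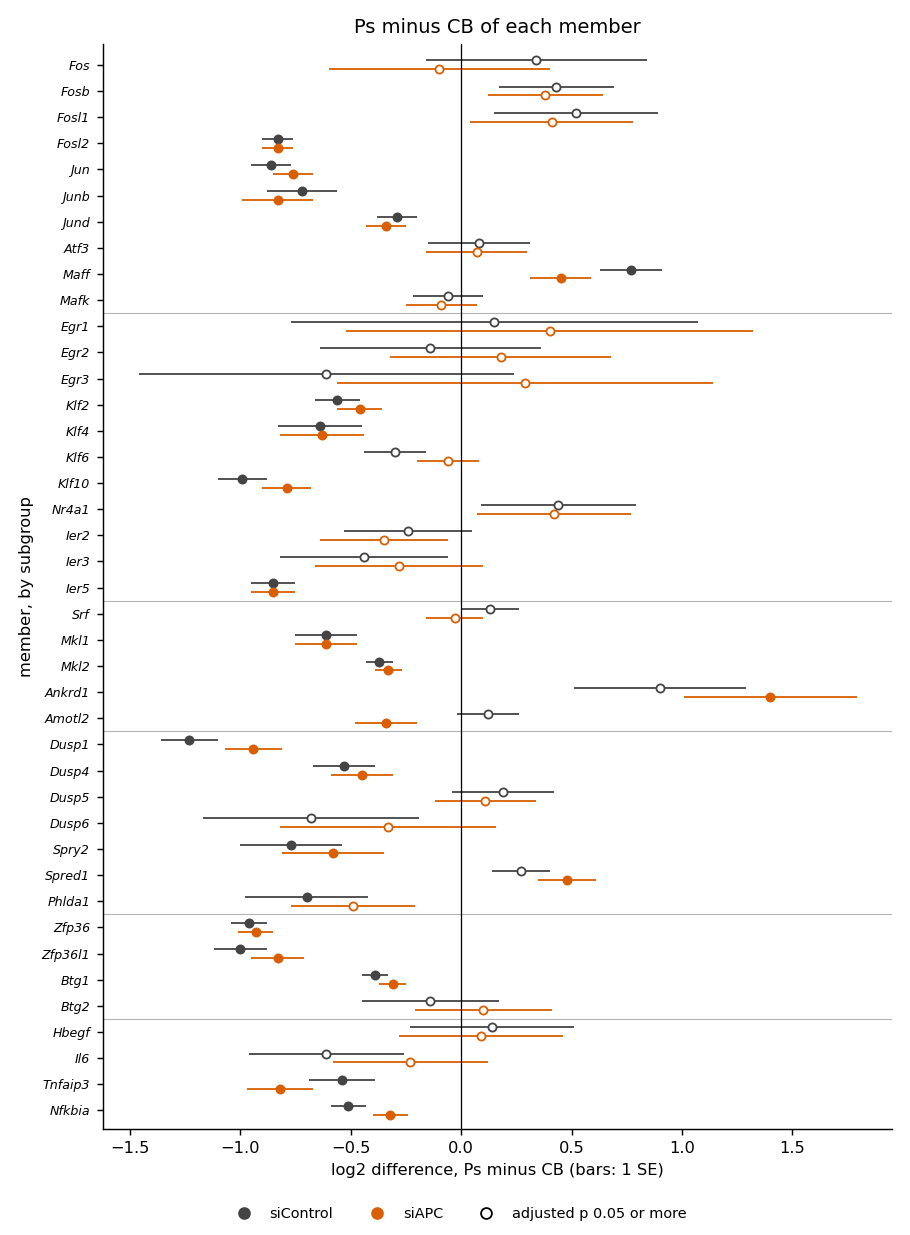
Log2 difference between Ps and CB (x axis, bars 1 SE from limma) for the 41 members (y axis, by subgroup) in siControl and siAPC, filled where the adjusted p is below 0.05. Most filled points lie left of 0, from Dusp1 at -1.23 in siControl, and Maff lies right of 0 with both siRNAs (0.77 and 0.45).

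In siAPC cells 19 of 41 members were again lower in Ps (46.3%, against 30.9% of all genes) and 3 were higher (7.32%, against 29.8%), with a median of -0.32 against 0.01 for all genes. With scaling to total reads the split over all genes moved from 3877 higher and 4024 lower to 2793 and 5114. Both comparisons hold 18 of the lower members (43.9%, against 27.1% of all genes) and 1 higher member, Maff (2.44% against 25.1%). Of the 18, Klf4 (-0.25), Klf2 (-0.13) and Dusp4 (-0.06) were not called in siAPC after removal of GC and length trends, and Spry2 was not called there in 5 of the 16 fits that leave out 1 library. The numbers were taken to pair the CB and Ps libraries of siAPC from correlations alone, and the labels state no pairing. With the replicate number as a block 23 members were lower and 6 higher. Over all genes the same fit gave 4177 lower and 4082 higher. The block added Egr1 (0.40, adjusted p = 0.0011), Nr4a1 (0.42, adjusted p = 0.000723) and Fosl1 (0.41, adjusted p = 0.0019) as higher in Ps, and Ier2, Ier3, Dusp6 and Phlda1 as lower. Without it the adjusted p of Egr1 was 0.724 and that of Nr4a1 0.31. The nuclear RNAs summed to 8.73 to 9.17 in siAPC CB and 6.73 to 7.91 in siAPC Ps, 3 of 4 being lower.

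Dusp1 fell by 0.94 (SE 0.13, adjusted p = 3.53e-06), Zfp36 by 0.93 (SE 0.08, adjusted p = 1.74e-08) and Ier5 by 0.85 (SE 0.10, adjusted p = 9.31e-07). Zfp36 read 4.60, 4.54, 4.55 and 4.46 in siAPC CB and 3.63, 3.52, 3.72 and 3.56 in siAPC Ps. Ier5, a regulator of heat shock factor 1 (chr1:155096361-155099636), read 5.61, 5.45, 5.62 and 5.51 in CB and 4.85, 4.83, 4.59 and 4.53 in Ps. No CB library was as low as any Ps library for either gene. Junb (chr8:84974484-84978718) read 6.37, 6.31, 6.31 and 6.29 in CB and 5.52, 5.13, 5.76 and 5.55 in Ps, and fell by 0.83 (SE 0.16, adjusted p = 0.000173). Fosl2 (chr5:32135801-32157842) read 8.04, 7.97, 7.90 and 7.85 in CB and 7.15, 7.14, 7.12 and 7.04 in Ps, and fell by 0.83 (SE 0.07, adjusted p = 2.02e-08). The groups of Junb and of Fosl2 did not overlap.

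Ankrd1, a nuclear and sarcomeric repeat protein and a classical YAP target (chr19:36111961-36120099), had the largest positive difference, at 1.40 (SE 0.39, adjusted p = 0.00455). It read -0.48, -0.54, -2.47 and -1.23 in siAPC CB and 0.76, 0.60, -0.21 and -0.29 in siAPC Ps, on 3 to 28 reads per library over all groups. Spred1, a membrane-bound inhibitor of Ras activation (chr2:117121374-117182279), read 4.15, 4.31, 4.04 and 4.03 in CB and 4.51, 4.94, 4.59 and 4.39 in Ps, and rose by 0.48 (SE 0.13, adjusted p = 0.00302), but read 0.13 (adjusted p = 0.201) once GC and length trends were removed. Maff read 3.58, 3.41, 3.44 and 3.75 in CB and 3.83, 3.72, 4.14 and 4.29 in Ps, where 1 Ps library lay below the highest CB library, and rose by 0.45 (SE 0.14, adjusted p = 0.0102). With scaling to total reads Ankrd1 alone kept its call among these 3. Amotl2, a YAP target and a scaffold that binds YAP, was lower by the test (-0.34, adjusted p = 0.0431) but turned to 0.29 once GC and length trends were removed, and with the replicate block as well it was called higher (adjusted p = 0.00234, limma). It was also not called in 5 of the fits that leave out 1 library. Mkl1 (0.09), Mkl2 (0.05) and Jund (0.05) changed sign after the same removal.

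Whether siAPC changed the difference between Ps and CB was tested as an interaction, and no member passed (limma, lowest adjusted p 0.981). Over all genes 0 passed as higher (0%) and 3 as lower (0.0231%), and at an unadjusted p under 0.05 there were 1 member and 492 genes. The lowest unadjusted p among members belonged to Amotl2 (chr9:102716672-102733418; -0.46, SE 0.20, adjusted p = 0.981, limma), which read 4.88, 5.08, 4.46 and 4.66 in siControl CB and 4.75, 4.86, 4.97 and 4.98 in siControl Ps. With siAPC it read 5.40, 5.18, 4.92 and 4.76 in CB and 5.00, 4.60, 4.78 and 4.5 in Ps. Dusp1 differed by 0.29 (SE 0.18, adjusted p = 0.981, limma). Nfkbia (chr12:55489410-55492647) differed by 0.19 (SE 0.12, adjusted p = 0.981, limma), from 5.96, 5.97, 5.60 and 5.64 in siControl CB, 5.46, 5.29, 5.23 and 5.17 in siControl Ps, 5.53, 5.51, 5.51 and 5.56 in siAPC CB and 5.26, 5.18, 5.21 and 5.20 in siAPC Ps. None of these 3 passed.

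Between siRNAs in the cell bodies, 5 members were higher with siAPC (12.2%, against 7.52% of all genes) and 5 were lower (12.2%, against 5.87%). In the protrusions 4 were higher (9.76%, against 10.7%) and 2 lower (4.88%, against 11.2%). Shares of members near or below those of all genes are no result about the members. The median differences were -0.03 in CB and 0.02 in Ps, against -0.04 and -0.02 for all genes. With scaling to total reads the split in Ps moved from 1393 higher and 1464 lower genes to 2943 and 550, and that of the members from 4 and 2 to 7 and 0. Dusp4, Hbegf, Btg1 and Fosl2 were higher in both fractions (9.76%, against 6.42% of all genes), and Klf10 and Zfp36 were lower in both (4.88% against 4.34%). The siRNA comparisons use the same libraries as those between fractions.

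Dusp4, a nuclear ERK phosphatase (chr8:34807297-34819894), had the largest difference. It read 2.54, 2.53, 2.87 and 2.84 in siControl CB against 3.76, 3.69, 3.99 and 4.02 in siAPC CB, and 2.21, 2.35, 2.04 and 2.04 in siControl Ps against 3.15, 3.16, 3.72 and 3.61 in siAPC Ps. Every siAPC library was above every siControl library. The difference was 1.17 in CB (SE 0.14, adjusted p = 1.30e-05) and 1.25 in Ps (SE 0.14, adjusted p = 3.77e-06), or 2.25-fold and 2.38-fold.

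Hbegf, a ligand of the EGF receptor that is released from the membrane by proteolysis (chr18:36504927-36515805), followed. It read 0.66, 0.89, 1.58 and 1.84 in siControl CB and 2.14, 2.51, 2.44 and 2.43 in siAPC CB, with no overlap. In Ps it read -0.11, 1.27, 2.17 and 2.18 in siControl and 2.43, 2.36, 2.72 and 2.36 in siAPC, again with no overlap but with siControl numbers 3 and 4 close to siAPC. The difference was 1.14 in CB (SE 0.37, adjusted p = 0.0481) and 1.09 in Ps (SE 0.37, adjusted p = 0.0407). Its call was lost in CB in 11 of the 16 fits that leave out 1 library and in Ps in 8 of them. Without siControl Ps 1 the difference in Ps was 0.59 (adjusted p = 0.134, limma), and with array weights it was 0.66.

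Btg1, an antiproliferative cofactor of mRNA deadenylation (chr10:96617006-96622809), read 7.63, 7.72, 7.46 and 7.64 in siControl CB and 7.94, 7.99, 7.92 and 8.03 in siAPC CB. In Ps it read 7.07, 7.26, 7.24 and 7.33 in siControl and 7.64, 7.76, 7.62 and 7.65 in siAPC. No siControl library reached a siAPC library of its fraction, and the difference was 0.36 in CB (SE 0.06, adjusted p = 0.000798) and 0.44 in Ps (SE 0.06, adjusted p = 6.74e-05). Fosl2 read 6.57, 6.83, 6.84 and 6.84 in siControl Ps, below each siAPC Ps library, and was 0.34 higher in CB (SE 0.07, adjusted p = 0.0038) and in Ps (SE 0.07, adjusted p = 0.00223). Maff was 0.52 higher in CB (SE 0.14, adjusted p = 0.0183), where the groups did not overlap, and differed by 0.20 in Ps (SE 0.14, adjusted p = 0.349).

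Klf10 fell by 0.61 in CB (SE 0.11, adjusted p = 0.000565) and by 0.41 in Ps (SE 0.11, adjusted p = 0.0092), with no overlap in either fraction. Klf6, a zinc finger factor of wound responses (chr13:5861482-5870394), read 5.37, 5.31, 6.09 and 5.69 in siControl CB and 5.04, 5.10, 4.94 and 5.01 in siAPC CB. It fell by 0.59 in CB (SE 0.14, adjusted p = 0.00831), without overlap, and in Ps it differed by -0.35 (SE 0.14, adjusted p = 0.0901). Jun read 5.93, 5.84, 6.01 and 5.92 in siAPC CB, all below siControl CB, and fell by 0.32 (SE 0.09, adjusted p = 0.0209). Zfp36 fell by 0.29 in CB (SE 0.08, adjusted p = 0.0234) and by 0.25 in Ps (SE 0.08, adjusted p = 0.0311). Nfkbia fell by 0.26 in CB (SE 0.08, adjusted p = 0.0419), where its siControl numbers 3 and 4 lay just above the siAPC libraries. Of the 16 fits that leave out 1 library, Nfkbia was not called in 8, Jun in 3, Maff in CB in 2, and Zfp36 in 5 in each fraction. With scaling to total reads Jun (-0.30), Zfp36 (-0.27) and Hbegf (1.16) were not called in CB, although their differences stayed about as large. Klf10 (-0.25) and Zfp36 (-0.09) were not called in Ps, where the differences were smaller.

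**Figure D5:**
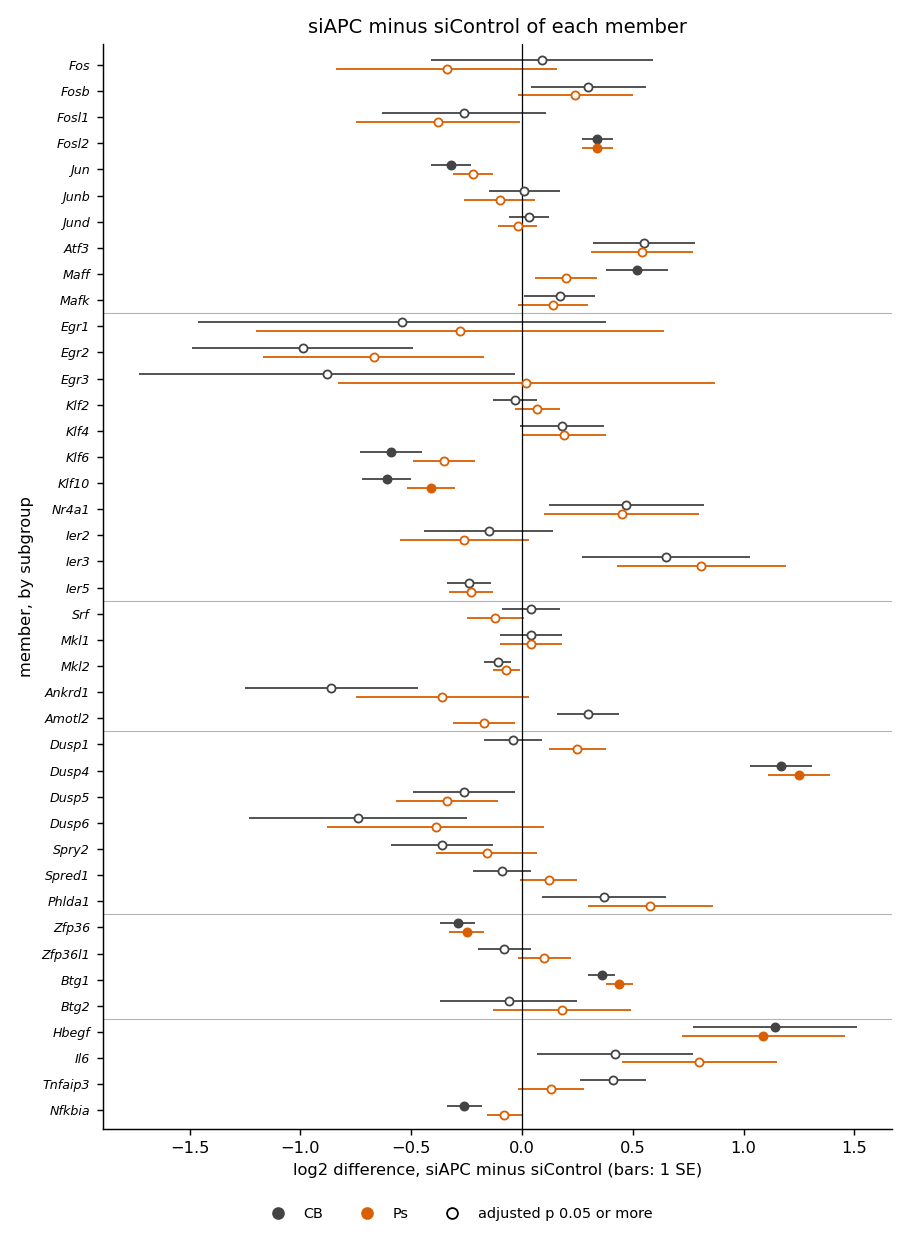
Log2 difference between siAPC and siControl (x axis, bars 1 SE from limma) for the 41 members (y axis, by subgroup) in CB and Ps, filled where the adjusted p is below 0.05. Dusp4 (1.17 and 1.25) and Hbegf (1.14 and 1.09) lie farthest right, and Egr1 (-0.54 in CB and -0.28 in Ps) has the widest bars.

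The numbers were taken to pair the Ps libraries of the siRNAs from correlations alone, and the labels state no pairing. The block there gave 9 members higher and 3 lower, against 1555 and 1758 of all genes. It added Ier3 (0.81, adjusted p = 0.0112), Phlda1 (0.58, adjusted p = 0.0169), Dusp1 (0.25, adjusted p = 0.0234), Nr4a1 (0.45, adjusted p = 0.0381) and Il6 (0.80, adjusted p = 0.0382) as higher and Jun (-0.22, adjusted p = 0.0188) as lower. Without it the adjusted p-values of these genes ran from 0.0882 to 0.414. Egr1 and Dusp6, with differences of opposite sign between numbers in Ps, were not called either way.

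Other immediate early genes, a list of 55 of which 52 were listed, were lower in Ps in 29 cases with siControl and 30 with siAPC, and 3 were higher with each (55.8% and 57.7% lower, against 31.2% and 30.9% of all genes). The higher share was 5.77% with each siRNA, against 29.1% and 29.8% of all genes. With siControl the largest in each direction included the cytokine Lif (-1.37, SE 0.17), the angiogenic factor Vegfa (-1.22, SE 0.13) and the matricellular protein gene Cyr61 (1.18, SE 0.49), and Odc1 of polyamine synthesis was 0.55 higher (SE 0.08). With siAPC the genes named by the same rule were Zfp36l2 (-1.26, SE 0.12), Csrnp1 (-1.13, SE 0.20), Tiparp (0.86, SE 0.21) and Odc1 (0.32, SE 0.08). Between siRNAs 13 were higher and 1 lower in CB, and 16 and 1 in Ps (25% and 30.8% higher, against 7.52% and 10.7%). Ctgf, a YAP and SRF target, was 2.19 higher in CB (SE 0.26) and 1.92 in Ps (SE 0.26), Klf5 was 1.5 and 1.94 higher (SE 0.18 each), and Trib1 fell by 0.74 and 0.65 (SE 0.16 each). With CB and Ps of a number taken as independent, the replicate number passed for 11 of the 52 (21.2%, against 2.05% of all genes), namely Id1, Id3, Plk3, Gadd45g, Tnfrsf12a, Bhlhe40, Vegfa, Myc, Rhob, Cyr61 and Ctgf. Cyr61 read 1.98, 1.85, 3.30 and 3.48 in siControl CB and 2.61, 2.06, 2.62 and 2.43 in siAPC CB, and Plk3 3.18, 2.91, 4.42 and 4.54 in siControl CB.

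SRF targets of the cytoskeleton, 30 listed of 31, had 17 higher and 3 lower in Ps with siControl (56.7% and 10%, against 29.1% and 31.2% of all genes) and 16 and 4 with siAPC. Caldesmon (Cald1) was 1.09 higher with siControl and 1.25 with siAPC (SE 0.18 each), and Actg2 0.92 and 0.77 (SE 0.17 each). The integrin Itga5 fell by 1.31 and 1.19 (SE 0.08 each) and the actin crosslinker Flna by 0.63 and 0.97 (SE 0.09 each). With siAPC 12 were higher and 1 lower in CB, and 11 and 3 in Ps (40% and 36.7% higher, against 7.52% and 10.7%). Smooth muscle actin (Acta2) was 1.46 higher in CB and 1.35 in Ps (SE 0.08 each), and the myosin light chain Myl9 1.38 and 1.30 (SE 0.08 each), whereas Tagln2 fell by 0.19 and 0.31 (SE 0.06 each) and Myh9 by 0.29 in Ps (SE 0.09). The replicate number passed for none of the 30, where Srf among the members did not pass either (adjusted p = 0.259).

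Of 22 listed YAP and TEAD targets and components, 11 were lower and 5 higher in Ps with siControl, and 14 and 3 with siAPC (50% and 63.6% lower, against 31.2% and 30.9% of all genes). Amot was 1.13 higher with siControl and 0.65 with siAPC (SE 0.15 each), and Ccnd1 0.49 higher with siAPC (SE 0.17), while Nuak2 fell by 0.98 with siControl (SE 0.21), Fjx1 by 0.92 and 0.97 (SE 0.16 each) and Axl by 0.87 with siAPC (SE 0.06). Between siRNAs 4 were higher and none lower in CB, and 4 were higher and 2 lower in Ps (18.2% higher in each, against 7.52% and 10.7% of all genes, and 9.09% lower in Ps, against 11.2%). Ccnd1, cyclin D1, had the largest difference at 2.30 in CB and 2.18 in Ps (SE 0.17 each). Amotl1 fell by 0.43 (SE 0.07) and Yap1 by 0.18 (SE 0.06) in Ps, whereas the members Ankrd1 (-0.86, SE 0.39, adjusted p = 0.164) and Amotl2 (0.30, SE 0.14, adjusted p = 0.185) did not pass in CB. With CB and Ps of a number taken as independent, the number passed for Tead4, Cyr61 and Ctgf (13.6% of the 22, against 2.05% of all genes). Cyr61 and Ctgf are also in the list of other immediate early genes and were counted there.

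The ERK pathway itself, with 23 listed genes, had 7 higher and 7 lower in Ps with siControl and 7 and 8 with siAPC, shares (30.4% each with siControl) close to those of all genes. Hras was 0.63 and 0.57 higher in Ps (SE 0.08 each), Nras 0.52 higher with siControl (SE 0.05) and Rps6ka3 0.56 with siAPC (SE 0.19). The scaffold Ksr1 fell by 0.76 and 0.94 (SE 0.13 each) and Mapk7 by 0.80 and 0.89 (SE 0.08 each). With siAPC the adaptor Gab1 was 0.39 higher in CB and 0.32 in Ps (SE 0.09 each). In CB 3 genes were lower, led by the kinases Map2k1 (-0.26, SE 0.08) and Araf (-0.23, SE 0.06), and in Ps 6 (13% and 26.1%, against 5.87% and 11.2% of all genes), led in Ps by Ksr1 (-0.38, SE 0.13) and Mapk7 (-0.34, SE 0.08). The replicate number passed for 0 of the 23 in the limma F test.

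Other feedback regulators of ERK and MAPK, 14 listed, had 5 lower and 3 higher in Ps with siControl and 4 and 3 with siAPC (35.7% and 28.6% lower, near the share of all genes). Spred3 fell by 1.14 and 0.81 (SE 0.08 each) and Dusp10 by 0.70 and 0.51 (SE 0.07 each). Ptpn11, the phosphatase SHP2, was 0.68 and 0.42 higher (SE 0.06 each), Nf1 0.27 higher with siControl (SE 0.09) and Rasa1 1.02 higher with siAPC (SE 0.37). Nf1 read -0.03 with scaling to total reads. Between siRNAs 3 were higher in each fraction (21.4%, against 7.52% of all genes in CB and 10.7% in Ps) and 1 was lower in CB (7.14% against 5.87%). Spred2, a relative of the member Spred1, was 0.73 and 0.70 higher (SE 0.11 each) and Dusp3 0.34 and 0.24 (SE 0.05 each), while Dusp10 fell by 0.31 in CB (SE 0.07).

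Of 19 listed NF-kB components and targets, 6 were lower in Ps with siControl and 7 with siAPC, where 1 was higher (31.6% and 36.8% lower, against 31.2% and 30.9% of all genes, and 0% and 5.26% higher, against 29.1% and 29.8%). The atypical inhibitor Nfkbiz fell by 1.40 and 0.91 (SE 0.16 each) and the chemokine Cxcl1 by 1.30 and 1.01 (SE 0.31 each), as did the members Tnfaip3 and Nfkbia. Chuk was 0.42 higher with siAPC (SE 0.14) but read -0.02 once GC and length trends were removed. Between siRNAs 1 was higher (Tnip1, 0.39, SE 0.08) and 1 lower (Nfkbiz, -0.58, SE 0.16) in CB, and Nfkb2 (-0.31, SE 0.08) and Ikbkb (-0.20, SE 0.07) were lower in Ps. These shares (5.26% each in CB and 10.5% in Ps) are no higher than those of all genes (7.52%, 5.87% and 11.2%). With CB and Ps of a number taken as independent, the number passed for Cxcl1 and Ikbkg (10.5% of the 19, against 2.05% of all genes).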

How the data were processed

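The deposited table holds log2 CPM for 13015 genes in 16 libraries. Per the labels and the study's methods, the authors demultiplexed with bcl2fastq 1.8.4, aligned with STAR 2.4.2a to mm10 with GENCODE annotation, counted with Rsubread and transformed with voom in limma 3.26.1. The strand setting of the counting is not given in the sources used here. The deposited log2 values give whole reads for 100% of values (within 0.01 read), so the depths are those of listed reads. Groups came from the labels. The comparisons used limma 3.58.1 (R 4.3.3; lmFit, then eBayes with trend) in which each group had its own mean and all 16 libraries entered without a block, the Benjamini-Hochberg method over all genes, and a threshold of 0.05. The study describes the 4 libraries of a group as independent replicates, without saying what a shared number means across groups.

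Members and lists were chosen with earlier results of these data known. In each comparison the up to 5 members with the largest change in each direction among those that passed are given in full, or the 3 with the lowest p if fewer than 3 passed. Of each other list, up to 2 genes per direction with a mean of at least 1 are given. The test of replicate number, its alternatives and the members named for it were chosen after seeing the data. Genes were matched to GENCODE M21 (GRCm38) for 98.9% of the list, for coordinates, GC content and transcript length. The fits were tested on simulated data. Alternatives were a replicate block, no intensity trend, scaling to total listed reads, quantile normalization, a mean of at least 1, voom weights, array weights, loess on GC content and length with and without the block, and leaving out the 4 libraries whose values fell with GC content or each library in turn.

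Deviations from the group means, over 10292 genes, correlated for same-numbered CB and Ps libraries of siAPC (0.448, 0.617, 0.529 and 0.416) and for siControl and siAPC libraries in Ps (0.162, 0.551, 0.44 and 0.227), so the numbers were taken to pair those. For numbers 1 to 4 the correlations were 0.337, -0.121, -0.121 and 0.432 for CB and Ps of siControl, and 0.269, -0.336, -0.324 and 0.256 for the siRNAs in CB. Numbers 2 and 3 were negative in both, so no pairing was taken there. Each negative pair held a library whose values fell with GC content. In the pairs that were taken, the libraries of a number mostly shared the direction of this trend. Those of number 2 all fell with GC content (siAPC CB -0.585, siAPC Ps -0.645 and siControl Ps -0.601). Those of numbers 3 and 4 rose (0.152 to 0.536), and those of number 1 lay between -0.04 and 0.051. The part of GC trends in the correlations was not tested, and the labels state no pairing. Python 3 scripts drew the figures.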

Additional observations from a re-analysis of the deposited data

Results flagged for a closer look

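Among 164 sets of 4 libraries (41 members in 4 groups) 4 held a library far from the other 3 by Dixon's 95% criterion, and chance gives about 1 in 20 such sets. Fosl2 was at 6.57 in siControl Ps number 1, against 6.83 to 6.84 in the others. Klf6 was at 4.95 in the same library, against 5.42 to 5.46, and at 5.21 in siAPC Ps number 2, against 4.87 to 4.90. Klf10 was at 5.59 in siControl Ps number 2, against 5.33 to 5.37. The libraries numbered 2 in Ps are among the 4 whose values fell with GC content.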

How the results depend on the processing

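Limits come first. Fos, Egr3, Ankrd1, Il6 and Atf3 have at most 65 reads in any library, so small differences in them were not detectable at this depth. In the interaction no member was called under any alternative.

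With the replicate block, which outside siAPC Ps against CB and the siRNAs in Ps rests on a shared number only, the members called were 6 higher and 22 lower for Ps against CB in siControl, 6 and 23 in siAPC, 7 and 6 for siAPC in CB, and 9 and 3 in Ps, and 1 gene was lower in the interaction. Over all genes the block gave, in the same order, 3968 and 4226, 4082 and 4177, 1097 and 958, and 1555 and 1758. In siControl the block added Fosb, Fosl1, Nr4a1, Ankrd1 and Spred1 as higher and Ier3, Dusp6 and Klf6 as lower, and in CB Ier3 and Nr4a1 as higher and Egr2 as lower. Members higher in Ps with siControl numbered 1, and 2 with quantile normalization, 2 with voom weights, 9 with array weights, 3 without the 4 libraries whose values fell with GC content, 6 with loess and 10 with loess and the replicate block. Over all genes those alternatives gave 3934, 3712, 4233, 3999, 3906 and 4144 higher, against 3792. Members higher in Ps with siAPC numbered 3, and 1 with total-read scaling, 5 with array weights, 5 with loess and 11 with loess and the block. All genes higher there numbered 3877, and 2793, 4374, 3752 and 4035 with those alternatives. Members higher with siAPC in CB numbered 8 with array weights, and members lower there 3 with total-read scaling. In Ps the members higher numbered 7 with total-read scaling and 8 with loess and the block, and the members lower 0 with total-read scaling, 1 with voom weights, 6 with array weights, 5 with loess and 4 with loess and the block. The cause was not tested.

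Over all genes, total-read scaling gave 2005 higher and 6193 lower for Ps against CB in siControl, and 2943 and 550 for siAPC in Ps. For siAPC in CB array weights gave 1481 higher and 1957 lower genes, loess 1624 lower and loess with the block 1842 lower. In Ps array weights gave 2209 and loess with the block 2317 lower genes. The interaction had 3 genes lower, and 0 with no intensity trend, total-read scaling or without the 4 libraries whose values fell with GC content, 6 with quantile normalization, 10 with array weights, 10 with loess and 16 with loess and the block, and 2 higher with quantile normalization and with loess and the block. The replicate number passed for 486 genes with loess and for 32 genes and 1 member with CB and Ps averaged. With loess, and equally with loess and the block, values changed sign for Jund (0.06 in siControl and 0.05 in siAPC), Mkl1 (0.03 and 0.09), Mkl2 (0.05 in siAPC), Amotl2 (0.29) and Chuk (-0.02), and with total-read scaling for Nf1 (-0.03).

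Leaving out each library in turn gave 1 to 4 members higher and 18 to 20 lower for Ps against CB in siControl (2 higher without siControl CB 3, siControl Ps 4, siAPC CB 1, 2 or 3 or siAPC Ps 2, and 4 without siControl Ps 1), and 3 and 17 to 19 in siAPC. For siAPC in CB it gave 3 to 5 higher (3 without siAPC CB 4) and 2 to 6 lower (3 without siControl CB 2 or 4 or siAPC CB 3, and 2 without siAPC CB 2 or 4). In Ps it gave 3 to 6 higher and 1 to 6 lower (6 without siControl Ps 1, and 1 without siControl Ps 3 or 4 or siAPC Ps 1 or 4). The interaction over all genes had 0 to 1 higher and 0 to 7 lower, and siAPC in CB had 427 (without siAPC CB 4) to 1001 genes lower. The number passed for 12 to 19 members and for 128 (without siControl Ps 2) to 1496 genes (without siControl CB 3).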

Other observations

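The genes with the lowest p for the replicate number, chosen after their values were seen, were not members. They were Slpi, a secreted protease inhibitor, Id1, an inhibitor of basic helix-loop-helix factors, Txnip, which responds to glucose and binds thioredoxin, Arntl, the clock factor BMAL1, and Foxs1 (adjusted p from 0.000168 to 0.00047 in the limma F test). Txnip read 8.96, 8.84, 8.19 and 8.40 in siControl CB and 8.47, 8.47, 8.13 and 8.08 in siAPC CB. In Ps it read 7.53, 7.59, 6.87 and 6.94 with siControl and 7.36, 7.44, 6.82 and 6.73 with siAPC. Numbers 1 and 2 were above numbers 3 and 4 in each group, as they were for Slpi, at 7.46, 7.45, 6.73 and 6.89 in siControl CB. Arntl ran the other way, at 4.18, 4.10, 4.64 and 4.73 in siControl CB and 4.18, 4.06, 4.63 and 4.68 in siAPC CB. For Arntl the values of same-numbered siControl and siAPC libraries were close in CB, unlike those of Egr1. The differences between siRNAs by number were not tested.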
